A study of Mus musculus with 2 samples.

Results

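Secreted proteins that tune Wnt signalling were followed across the cells of denervated mouse muscle through 9 of the 32287 features of 1 single-cell matrix, Wif1, Sfrp1, Sfrp2, Sfrp4, Dkk2, Dkk3, Frzb, Rspo3 and Wnt5a. They were chosen by their levels in the connective tissue cells of this same library, so which class each gene was highest in is a description and carries no test. The tibialis anterior and gastrocnemius were taken from 2-month-old male S100GFPtg mice, titled WT in the labels, 7 days after the sciatic nerve was crushed, and live cells were sorted into a GFP+ and a GFP- fraction, of which the GFP+ library is described here. In these mice the S100B promoter drives green fluorescent protein, and both fractions carry that transgene and the injury. The study's methods speak of pooled males and the series text of a single crushed mouse, so how many animals gave these cells is uncertain. Counts of 1 library were used, with no uninjured library beside it, so every interval below covers counting error only.

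Wnt proteins are secreted lipid-modified signals that bind Frizzled receptors and, in the canonical branch, the co-receptors Lrp5 and Lrp6, which stabilizes beta-catenin. Secreted modulators act outside the cell: Wif1 and the secreted Frizzled-related proteins bind Wnt ligands directly, Dickkopf proteins act at the co-receptors, and R-spondins raise the amount of receptor at the surface through Lgr receptors and the ligases Rnf43 and Znrf3. Fibroblasts and tendon cells of muscle make much of the extracellular matrix, and Wnt signalling is known to influence both muscle repair and fibrosis.

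The library held 36400 barcodes and 170648616 unique molecular identifiers (UMIs, each standing for 1 captured transcript). A barcode was used if it had at least 2000 UMIs, over 200 genes and less than 10% of its UMIs from mitochondrial genes, which left 18528 with a median of 4363.5 UMIs. Classes were formed by gates on marker UMIs in which no member took part, and are called by their gate with "-like". The 7 stromal classes were the tenocyte-like class (1341 barcodes) and 6 fibroblast-like ones, named by a gate gene: Pi16 (301), Gdf10 (348), Smoc2 (311), Bmper (225), Apod (40) and the other fibroblast-like barcodes that passed none of those gates (1583). Another 8 classes held between 121 neutrophil-like and 7228 monocyte/macrophage-like barcodes. All 9 tenocyte genes were found in at least 10% of the tenocyte-like barcodes, and all 10 fibroblast genes in at least 10% of the other fibroblast-like ones. Of the barcodes used, 4041 (21.8%) passed no gate and 937 (5.06%) passed more than 1 and were left out. The GFP+ library shared 372 barcode sequences with the 39531 of the GFP- library.

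A level is given as CPM, the UMIs of a gene per 1000000 UMIs of a class. The kit tags the 3′ end of a transcript, so CPM values of different genes are not ranked against each other. The 8 members other than Frzb had their highest levels in 5 of the 7 stromal classes: Wif1 in tenocyte-like barcodes, Sfrp1 in the Smoc2 class, Sfrp2 in the Pi16 class, Sfrp4, Dkk3 and Wnt5a in the Gdf10 class, and Dkk2 and Rspo3 in the Bmper class. The Apod class and the other fibroblast-like barcodes were highest for none of these 8. Frzb was the exception, since its UMIs lay in Schwann-like barcodes and almost none in stromal ones, which goes against calling it a stromal gene here. After each barcode was thinned at random to 2000 UMIs, between 51.2% (tenocyte-like) and 71.6% (Bmper) of the barcodes of a stromal class held a UMI of at least 1 member. Outside the stroma that share was 25.3% in smooth muscle and pericyte-like, 21.6% in Schwann-like and 15.9% in muscle fibre-like barcodes, and between 5.25% and 8.26% in the other 5 classes. Without thinning, the share was 92.4% in the Bmper class, 65.2% in the tenocyte-like class and 8.41% in the monocyte/macrophage-like class, whose median depths were 11303, 3140 and 8528.5 UMIs.

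**Figure D1:**
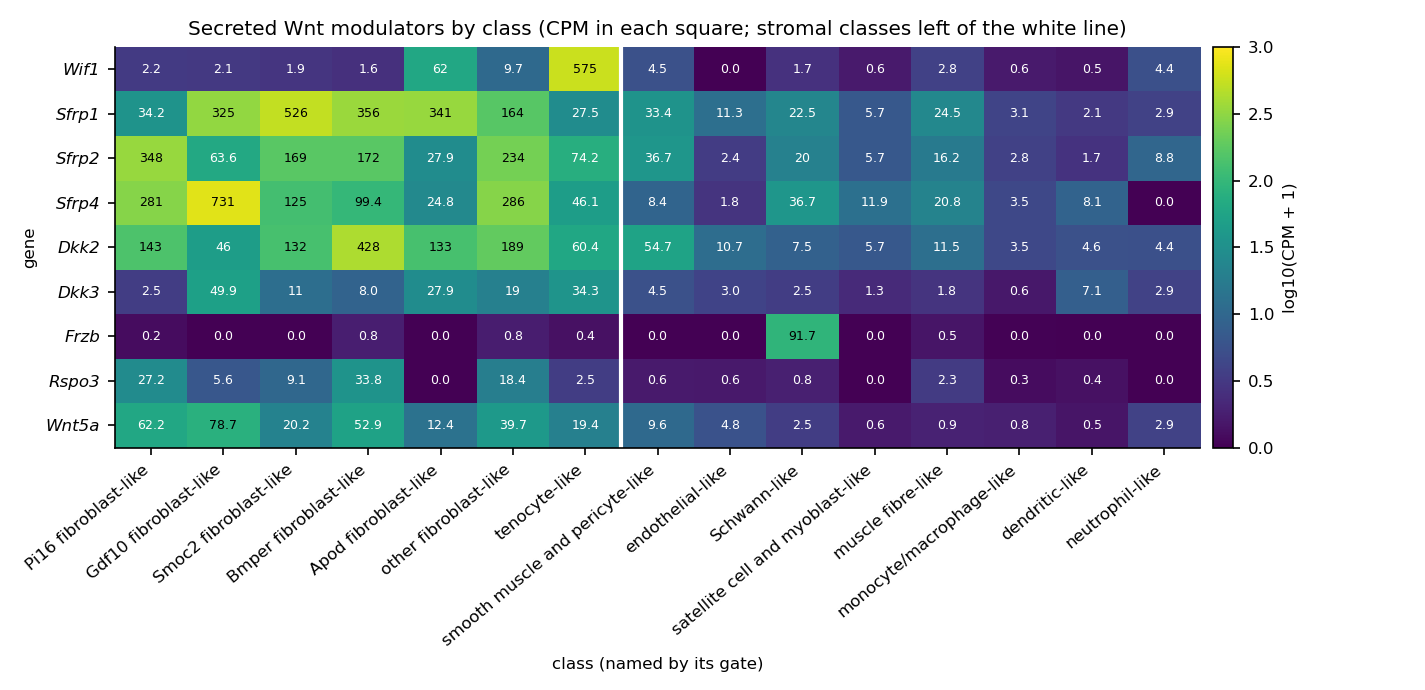
Level of each member (rows) in each of 15 classes (columns), as CPM printed in the square and as log10(CPM + 1) in the colour, with stromal classes left of the white line. Wif1 reaches 575 CPM in the tenocyte-like class, Sfrp4 reaches 731 CPM in the Gdf10 class, and Frzb has its 91.7 CPM in the Schwann-like class.

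**Figure D2:**
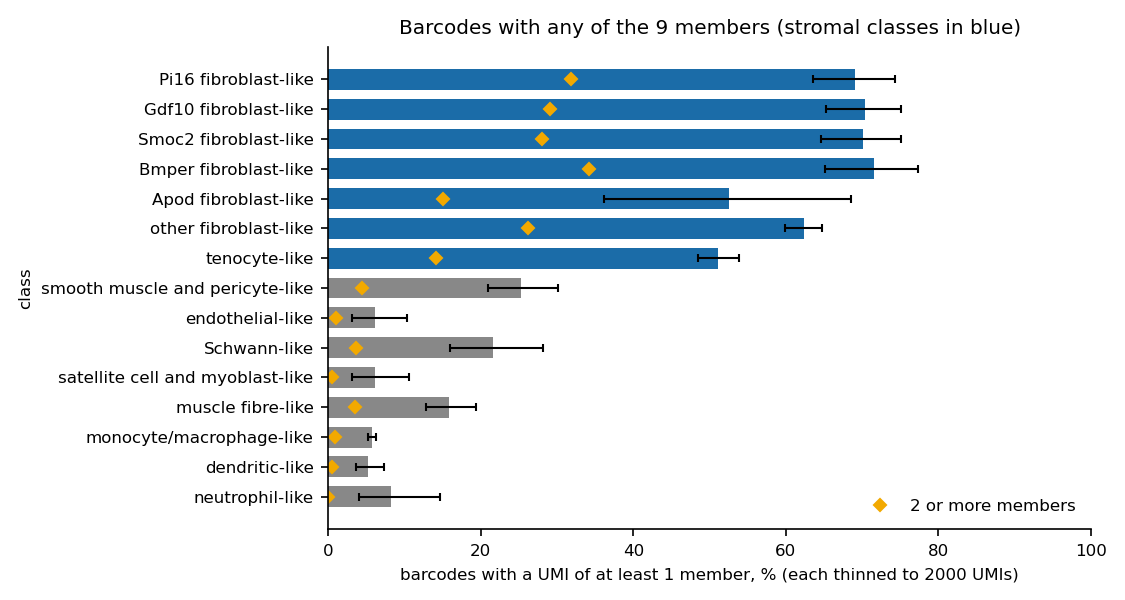
Share of barcodes (x axis, percent) in each class (y axis) with a UMI of at least 1 member after thinning to 2000 UMIs, with exact binomial 95% intervals as bars and the share with 2 or more members as diamonds. All 7 stromal classes (blue) lie above 50%, and the other classes (grey) at 25.3% or below.

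Wif1, which encodes Wnt inhibitory factor 1, a secreted protein that captures Wnt ligands (chr10:121034004-121100642, GRCm38.p6), was the most uneven member over the stromal classes. Its level was 575 CPM (95% interval 559 to 592, from 4604 UMIs) in tenocyte-like barcodes and 62.0 CPM (37.9 to 95.8, from 20 UMIs in 7 barcodes) in the small Apod class. It was 9.69 CPM in the other fibroblast-like barcodes and between 1.59 and 2.25 CPM in the Pi16, Gdf10, Smoc2 and Bmper classes. The tenocyte-like level was 9.27 times that of the Apod class and 88.5 times that of all other stromal classes together, a log2 ratio of 6.47 (6.23 to 6.72). That ratio was 4.82 with the mean over barcodes, 5.59 with barcodes of at least 1000 UMIs and 7.86 with those of at least 5000 UMIs. The tenocyte-like class held 87.4% of all Wif1 UMIs of the barcodes used while it made up 7.24% of those barcodes. In the 8 classes outside the stroma Wif1 lay at or below 4.50 CPM, and the endothelial-like class had 0 UMIs, which allows up to 1.79 CPM.

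Wif1 did not rank the classes as the summed tenocyte genes did. The 9 tenocyte genes came to 17067 CPM in the tenocyte-like class, 1130 CPM in the Smoc2 class, where Wif1 was at 1.9 CPM, and 698 CPM in the Apod class, where it was at 62.0 CPM. Among tenocyte-like barcodes the gene was present in 41.2%, or 32.7% after thinning (30.2 to 35.3), and the 10% of barcodes with the most Wif1 held 74.5% of its UMIs. In the 433 tenocyte-like barcodes with at least 5000 UMIs the level was 742 CPM (720 to 766), against 219 CPM in shallower ones. The same deep barcodes gave 53.6 CPM in the Apod class, from 14 UMIs in 18 barcodes, and 0.81 CPM or less in the Pi16, Gdf10, Smoc2 and Bmper classes. The depth limit of 2000 UMIs left out 1930 tenocyte-like barcodes with 1000 to 2000 UMIs, in which Wif1 was at 242 CPM, beside 195 CPM in the 629 with 2000 to 3000 UMIs.

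The tenocyte-like barcodes with a Wif1 UMI (553, median 4552 UMIs) differed from those without (788, median 2796.5 UMIs) in several tendon and matrix genes. Comp, a cartilage and tendon matrix protein, was at 1976 CPM with Wif1 and 542 CPM without, a log2 ratio of 1.87 (1.80 to 1.94). The tendon proteoglycans Kera (1.48) and Fmod (1.46) and the tendon transcription factor Mkx (1.25) were also higher with Wif1, as log2 ratios. Scx, an early tendon transcription factor, was at 305 and 282 CPM, a log2 ratio of 0.11 (-0.01 to 0.23). Chodl, a membrane lectin in the tenocyte gate, went the other way, at 29.6 CPM with Wif1 and 388 CPM without (-3.71, -3.98 to -3.45). Among the fibroblast genes, Dcn (1.62), Serpinf1 (1.40) and Col1a1 (1.13) were higher and Pdgfra (-1.25), Scara5 (-1.23), Abca8a (-1.20), Dpt (-1.18), Lum (-1.04) and Col3a1 (-0.99) lower with Wif1. For Clec3b (0.05) the interval of -0.11 to 0.21 held 0, but the ratio was 0.77 (0.52 to 1.03) in barcodes with at least 5000 UMIs. Of the tenocyte genes 8 of 9 had a ratio above 0, with a list median of 0.66. Over the 5586 genes with at least 200 UMIs in this class, 2022 had a ratio above 0 and the median was -0.14. In barcodes with at least 5000 UMIs 6 of the 9 tenocyte genes were above 0. The list median there was 0.42, beside -0.17 over all genes.

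Some other members also differed between tenocyte-like barcodes with and without a Wif1 UMI. Sfrp1 was at 9.87 CPM with Wif1 and 48.6 CPM without, a log2 ratio of -2.30 (-2.82 to -1.81), and Wnt5a at 9.18 and 31.6 CPM (-1.78, -2.34 to -1.25), from 155 UMIs in all. The CPM of Sfrp2 (0.82), Sfrp4 (0.59) and Dkk2 (0.33) was higher with Wif1, and for Dkk3 the interval of -0.22 to 0.49 held 0. In barcodes with at least 5000 UMIs the log2 ratios of Sfrp2, Sfrp4 and Dkk2 were 1.66, 1.33 and 1.27. For Sfrp4 the count of barcodes went the other way: its 369 UMIs lay in 87 tenocyte-like barcodes, up to 54 in a single barcode, and after thinning 15 barcodes held both genes where the product of their shares gives 18.7. The 10 macrophage genes were all lower with Wif1, with a median log2 ratio of -1.0, where 2022 of all 5586 genes were higher. Of the 10 fibroblast genes 4 had a ratio above 0 and 6 below. The barcodes with Wif1 were also deeper. The part of macrophage RNA, fibroblast RNA or depth in these ratios was not tested. In barcodes with at least 5000 UMIs (261 with and 172 without), the log2 ratio of Comp was 1.9, that of Chodl -4.14, that of Sfrp1 -2.98 and that of Wnt5a -2.60, while Scx (-0.21) and Col11a1, a fibrillar collagen (0.16 at all depths, -0.25 here), changed sign.

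**Figure D3:**
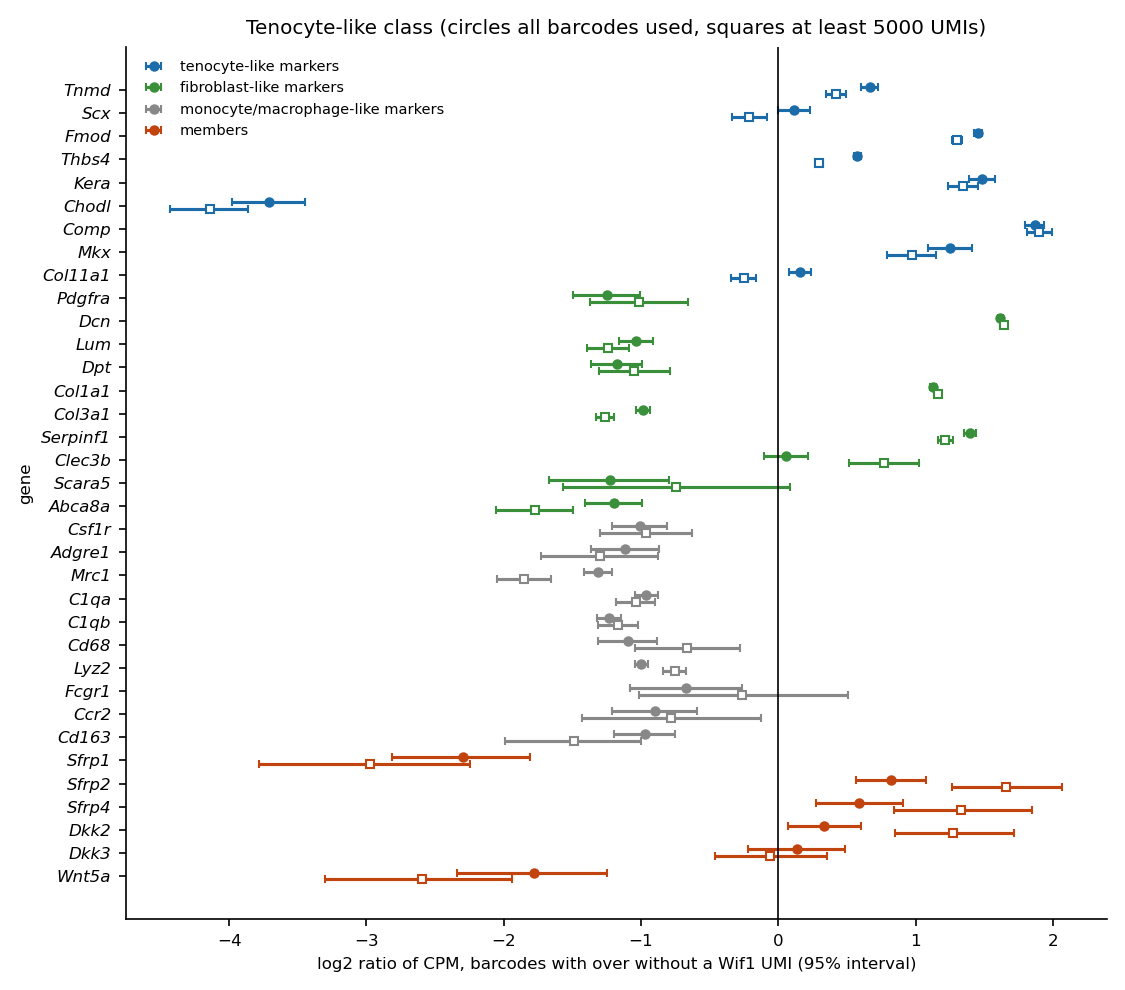
Log2 ratio of CPM between tenocyte-like barcodes with and without a Wif1 UMI (x axis) for the genes on the y axis, with exact conditional 95% intervals, for all barcodes used (circles) and those with at least 5000 UMIs (open squares). Comp, Fmod, Kera and Dcn lie to the right and Chodl, Sfrp1 and Wnt5a farthest to the left.

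Sfrp1, Sfrp2, Sfrp4 and Frzb belong to the secreted Frizzled-related family, whose cysteine-rich domain resembles the Wnt-binding part of Frizzled receptors. Sfrp1 (chr8:23411383-23449632) was at 526 CPM (499 to 554) in the Smoc2 class. It was at 356 CPM in the Bmper class (333 to 380), 341 CPM in the Apod class (280 to 411) and 325 CPM in the Gdf10 class (302 to 349), and the intervals of the ratios between these neighbours held 1. The other fibroblast-like barcodes followed at 164 CPM, and the level was 34.2 CPM in the Pi16 class and 27.5 CPM in tenocyte-like barcodes. The Smoc2 level was 3.79 times that of the other stromal classes together, just under the 4-fold limit used for calls, and 1.48 times that of the next class. Sfrp1 was present after thinning in 52.1% of Smoc2 barcodes (46.4 to 57.8), against 1.52% of monocyte/macrophage-like ones. In some classes outside the stroma the low level moved with depth. In muscle fibre-like barcodes Sfrp1 was at 43.0 CPM in shallow (under 5000 UMIs) and 2.99 CPM in deep barcodes. The monocyte/macrophage-like ones were at 21.9 and 0.75 CPM. In smooth muscle and pericyte-like barcodes, at 33.4 CPM in all, it moved little, from 36.0 CPM (24.4 to 51.1) to 30.3 CPM (18.8 to 46.3). The part of free RNA was not tested.

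Sfrp2 (chr3:83765750-83774314) had its highest level, 348 CPM (330 to 367), in the Pi16 class, where Sfrp1 was low. The other fibroblast-like barcodes were at 234 CPM, the Bmper and Smoc2 classes at 172 and 169 CPM, the tenocyte-like class at 74.2 CPM, the Gdf10 class at 63.6 CPM and the Apod class at 27.9 CPM, from 9 UMIs. The levels of the Bmper and Smoc2 classes did not differ beyond counting error, nor did those of the tenocyte-like and Gdf10 classes. The Pi16 level was 2.24 times that of the rest of the stroma. Sfrp2 was spread over many barcodes in the Pi16 class (66.4% of barcodes, 37.9% after thinning) and packed into few in the Bmper class, where 22.2% held a UMI, the top 10% of barcodes held 91.0% of the UMIs and 1 barcode held 148. In the Pi16 class the top 10% held 51.6%.

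Sfrp4 (chr13:19623175-19632825) stood out in the Gdf10 class at 731 CPM (697 to 767), and 42.8% of its barcodes held it after thinning. The other fibroblast-like barcodes (286 CPM) and the Pi16 class (281 CPM) came next and did not differ beyond counting error, followed by the Smoc2 (125 CPM), Bmper (99.4 CPM), tenocyte-like (46.1 CPM) and Apod (24.8 CPM) classes. The Gdf10 level was 4.02 times that of the other stromal classes together, just over the 4-fold limit. The log2 ratio of 2.01 was below 2, the limit on that scale, when predicted doublets were removed (1.99) and when the mean over barcodes was taken (1.78). In deep Gdf10 barcodes it was 850 CPM (807 to 895) and in shallow ones 396 CPM. Outside the stroma Schwann-like barcodes showed 36.7 CPM, but 10.1 CPM in the deep ones and 114 CPM in the shallow ones. The 8.06 CPM of dendritic-like barcodes rested on 65 UMIs in 12 barcodes, 38 of them in 1 barcode.

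Frzb (chr2:80411970-80447396), also called Sfrp3 and known from cartilage, was not a stromal gene in this library. Only 14 of its 165 UMIs in the barcodes used fell in the 7 stromal classes, 0.46 CPM over all of them, with 8 UMIs in the other fibroblast-like barcodes, 3 in the tenocyte-like class and 0 in the Gdf10, Smoc2 and Apod classes. A count of 0 allows up to 1.29, 1.14 and 9.31 CPM in those 3 classes. The Schwann-like class, 190 barcodes or 1.03% of those used, held 110 UMIs (66.7%) and a level of 91.7 CPM (75.4 to 111). The 92 deep barcodes of that class were at 109 CPM (88.2 to 133) and the shallow ones at 42.3 CPM. After thinning 8.42% of the Schwann-like barcodes held Frzb (4.89 to 13.3). The 10% of them with the most Frzb held 70% of its UMIs in the class. The class level was 199 times the stromal level (log2 ratio 7.63, 6.83 to 8.55) and 565 times that of the other 14 classes together (9.14, 8.42 to 9.95).

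Taking the whole library at any depth, 463 barcodes passed the Schwann gate and held 152 Frzb UMIs, while the other 35937 held 53. In the Schwann-like class the fibroblast list stood at 2528 CPM, against at least 29794 CPM in every stromal class.

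The 250 bases before the RefSeq gene starts of Wif1 and Frzb are shown because these were the 2 members with most of their UMIs in a single class. They lie at chr10:121033754-121034003 on the + strand and chr2:80447397-80447646 on the - strand of GRCm38.p6 and are written in the direction of transcription. Capitals mark CTTTG, the core of the sites bound by the TCF/LEF factors of Wnt signalling, and CANNTG, the E-box of bHLH factors, on either strand.
Wif1: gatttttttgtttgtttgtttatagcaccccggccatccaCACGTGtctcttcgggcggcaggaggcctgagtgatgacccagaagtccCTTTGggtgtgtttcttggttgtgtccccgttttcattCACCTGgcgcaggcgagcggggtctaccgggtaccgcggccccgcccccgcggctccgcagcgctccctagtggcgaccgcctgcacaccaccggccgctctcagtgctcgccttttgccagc
Frzb: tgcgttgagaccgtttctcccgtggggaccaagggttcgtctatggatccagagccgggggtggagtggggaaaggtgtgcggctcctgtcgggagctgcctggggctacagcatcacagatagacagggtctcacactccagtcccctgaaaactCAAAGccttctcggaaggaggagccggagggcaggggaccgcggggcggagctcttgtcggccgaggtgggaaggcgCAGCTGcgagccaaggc
The Wif1 window held CTTTG 161 bases and E-boxes 210 and 123 bases before the start, and the Frzb window CAAAG, the same core on the other strand, 94 bases and an E-box 17 bases before it. Neither held ACAANG, a form of the SOX motif. Of the 32851 upstream windows of the table, 48.6% held CTTTG, 66.2% CANNTG and 36.3% ACAANG on either strand, so these matches are common. Sfrp1, Sfrp4, Dkk3, Rspo3 and Wnt5a had no entry in that table, and the windows for Sfrp2 and Dkk2 did not end just before the listed gene start.

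Dkk2 and Dkk3 belong to the Dickkopf family, of which Dkk2 acts on Lrp5 and Lrp6 while Dkk3 is a divergent member with less clear ties to Wnt signalling. Dkk2 (chr3:132085266-132180304) was at 428 CPM (403 to 455) in the Bmper class. The other fibroblast-like barcodes were at 189 CPM, and the Pi16 (143 CPM), Apod (133 CPM) and Smoc2 (132 CPM) classes did not differ from one another beyond counting error. Tenocyte-like barcodes were at 60.4 CPM and the Gdf10 class, in which Sfrp4 was highest, at 46.0 CPM. The Bmper level was 3.37 times that of the other stromal classes together. After thinning 37.3% of Bmper barcodes held Dkk2, against 4.89% of the Gdf10 barcodes. The gate did not use Dkk2, but its genes Bmper and Lsamp were listed for a group named with Dkk2 as well. The class is therefore not independent of Dkk2, and its level there is a description. Smooth muscle and pericyte-like barcodes were at 54.7 CPM, and at 47.6 CPM in deep ones, with 26 of their 85 UMIs in 1 barcode. The fibroblast list in that class was at 3601 CPM and its part in this level was not tested.

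Dkk3 (chr7:112116019-112159482) had a different pattern, with 49.9 CPM (41.2 to 59.8) in the Gdf10 class and 34.3 CPM (30.4 to 38.6) in tenocyte-like barcodes. The Apod class was at 27.9 CPM (12.8 to 53.0), the other fibroblast-like barcodes at 19.0 CPM, and the Smoc2, Bmper and Pi16 classes at 11, 7.96 and 2.50 CPM. The Apod interval held the levels of both its neighbours. Dkk3 was thus lowest in the Pi16 class, where Sfrp2 was highest. Outside the stroma it reached 7.07 CPM in dendritic-like barcodes (5.35 to 9.16), spread over 40 barcodes with at most 3 UMIs each, beside 0.57 CPM in the monocyte/macrophage-like class.

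Rspo3 encodes an R-spondin, the only agonist of the canonical branch among the members (chr10:29453106-29535867), and was a gene of low counts. It was at 33.8 CPM (27.0 to 41.8) in the Bmper class, 2.61 times the other stromal classes together, and 27.2 CPM (22.4 to 32.8) in the Pi16 class, levels that did not differ beyond counting error, and at 18.4 CPM in the other fibroblast-like barcodes. The Smoc2, Gdf10 and tenocyte-like classes were at 9.14, 5.59 and 2.50 CPM. The 40 Apod barcodes held 0 UMIs, which allows up to 9.31 CPM, so a level like that of the Gdf10 class would not have been detectable there. With the mean over barcodes the log2 ratio of the Bmper class to the rest was 2.03 in place of 1.38, past the 4-fold limit. No class outside the stroma exceeded 2.31 CPM.

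Wnt5a, the only Wnt ligand among the members and one that mostly acts through the non-canonical branch with Ror2 (chr14:28504543-28527448), had its highest level in the Gdf10 class, at 78.7 CPM (67.7 to 90.9). The Pi16 class was at 62.2 CPM (54.7 to 70.4), the Bmper class at 52.9 CPM (44.3 to 62.7) and the other fibroblast-like barcodes at 39.7 CPM. The Pi16 and Bmper levels did not differ beyond counting error. The Smoc2 and tenocyte-like classes, at 20.2 and 19.4 CPM, did not differ beyond counting error, and the Apod class was at 12.4 CPM from 4 UMIs. The Gdf10 level was 2.18 times that of the other stromal classes together.

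**Figure D4:**
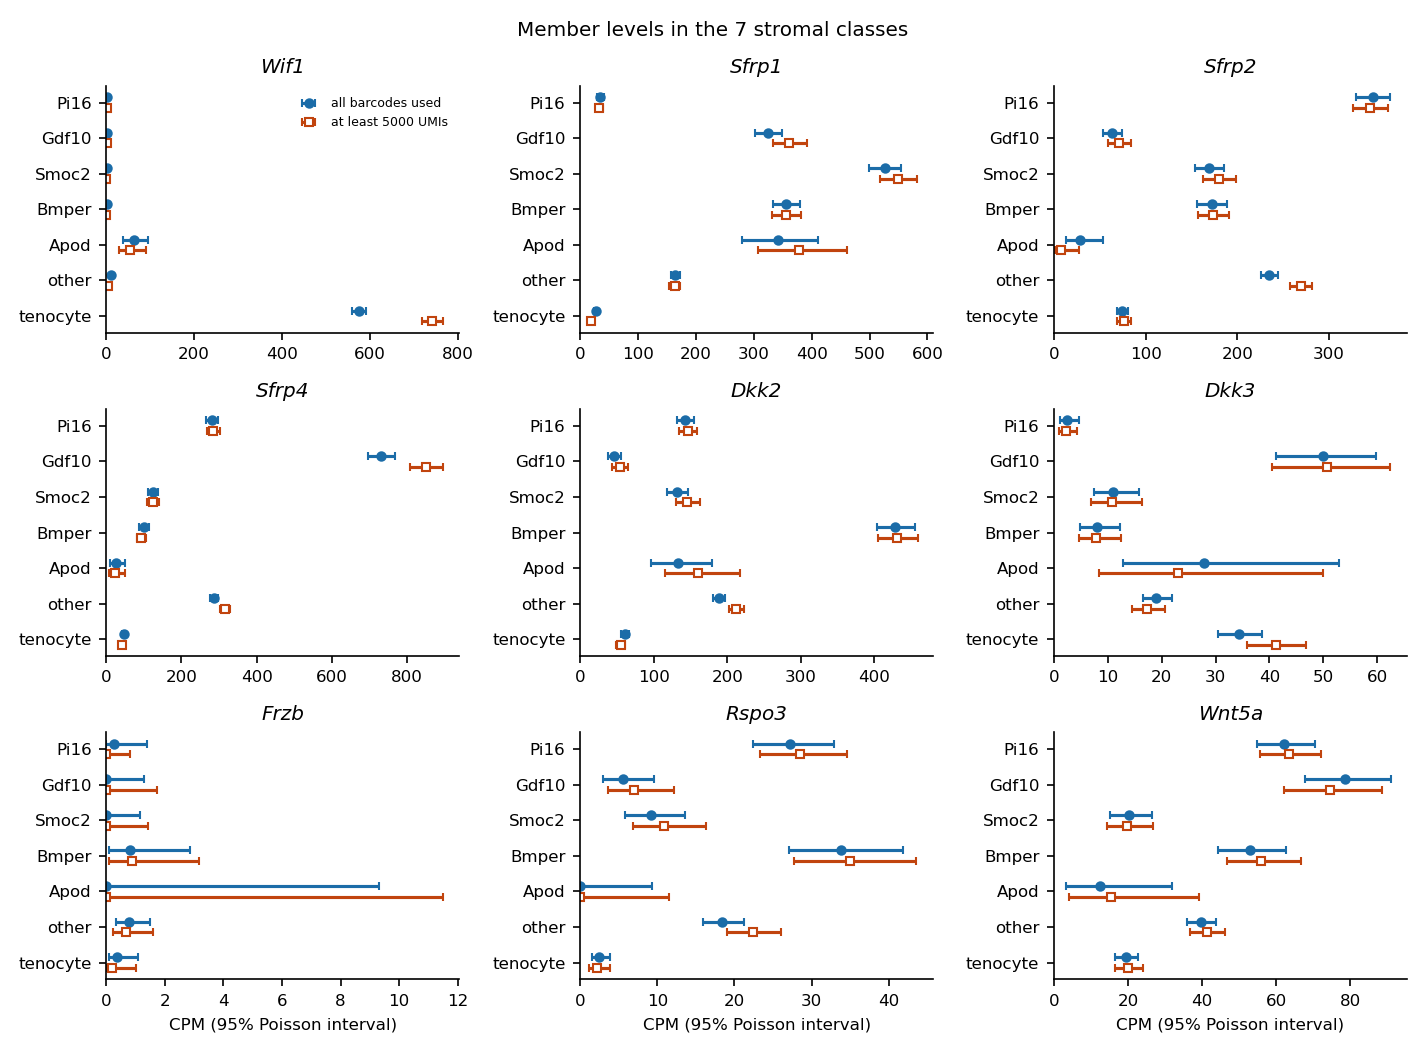
CPM of each member (x axis, 1 panel a gene, with its own scale) in the 7 stromal classes (y axis), with exact Poisson 95% intervals, for all barcodes used (filled) and those with at least 5000 UMIs (open). For each member other than Frzb the class with the highest level was the same at both depths, and a count of 0 is drawn with its upper limit of 3 counts.

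The members were then set against all genes. Of the 9 members, 8 had at least 200 UMIs in the stromal classes, as did 9936 genes in all, and Frzb did not. At least 4 times the level of the myeloid (monocyte/macrophage-like and dendritic-like) classes was found for 8 members, from 16.9-fold for Dkk3 to 248-fold for Wif1, where the share over all 9936 genes was 16.5%. At least 4 times the level of the other stromal classes in the highest one was found for Wif1 and Sfrp4, where the share over all genes was 3.94%. The median fold of the highest stromal class over the others was 2.99 for the 8 members and 1.41 for all genes. These contrasts helped to choose the members, so the counts describe them and nothing is read from the gap. In monocyte/macrophage-like barcodes those 8 members lay between 0.26 and 3.48 CPM, and between 0.10 and 1.06 CPM in deep barcodes.

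The members differed in how they met in the same barcode. Over the 4149 stromal barcodes, each thinned to 2000 UMIs, Sfrp1 and Dkk2 shared 217 barcodes where the product of their shares gives 132, a ratio of 1.65. Within classes that ratio was 1.05 (Smoc2), 1.20 (Bmper), 1.38 (other fibroblast-like), 2.01 (Gdf10), 2.24 (Pi16) and 3.49 (tenocyte-like), and 1.78 from 2 barcodes in the Apod class. Sfrp2 and Dkk2 shared 152 where the product gives 93.7 (1.62), a ratio that within classes was 1.02 (Gdf10), 1.23 (Bmper), 1.24 (Smoc2), 1.44 (Pi16), 1.55 (other fibroblast-like) and 1.56 (tenocyte-like), with 0 shared barcodes in the Apod class. Wif1 met Sfrp4 in 23 barcodes (ratio 0.27) and Sfrp1 in 30 (0.30), where the products give 86.6 and 100.3. Within the tenocyte-like class these ratios were 0.80 and 0.63. Sfrp4 and Dkk2, which led different classes, met 70 times among the other fibroblast-like barcodes, where the product gives 70.8, and their ratio was 1.13 over all stromal barcodes and between 0.64 (Smoc2) and 1.10 (Gdf10) in the 5 fibroblast-like classes other than Apod, which shared 1 barcode. Within the tenocyte-like class, however, Dkk2 met Sfrp4 in 19 barcodes (ratio 3.66) and Sfrp1 in 26 (3.49), and the part of the fibroblast and macrophage RNA in that class was not tested. A barcode held at most 6 members after thinning, in the tenocyte-like class, and 34.2% of Bmper barcodes held 2 or more, against 14.1% of tenocyte-like ones.

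Genes with the most similar pattern were sought among genes with at least 200 stromal UMIs outside the gates, by Pearson's r of log2(CPM + 1) over the 15 classes, which share 1 library. For Wif1 the closest was Angptl7, a secreted angiopoietin-like protein (r = 0.97), at 2339 CPM in tenocyte-like barcodes and 31.6 CPM in the rest of the stroma, followed by Col8a2 (0.91) and Yjefn3 (0.90). Sfrp1 went with Spon1 and Podn (both 0.98) and Cygb (0.97), Sfrp2 with Vasn (0.97), Fgf2 (0.96) and Ccdc80 (0.95), and Sfrp4 with Gabra3 (0.95), Cfap53 (0.94) and Glt8d2 (0.94). Dkk2 went with Tmem132c (0.97), Col6a3 and Twist1 (both 0.96), and Dkk3 with 1700024B18Rik (0.90), Clec11a (0.87) and Ccbe1 (0.86). For Rspo3 they were Gm16118 and Myorg (both 0.93) and Fgf10 (0.92), and for Wnt5a Cul7, Prrg3 and 2510009E07Rik (each 0.95). The floor of 200 stromal UMIs excludes genes like Frzb itself, and its nearest among the rest were Arpc1a (0.96), Fbxo7 (0.95) and Dbi (0.94).

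The other 66 Wnt pathway genes of a fixed list showed where ligands and receptors lay. Of these, 31 had at least 200 stromal UMIs, 20 were at least 4 times as high in the stroma as in the myeloid classes (background 16.5%) and 3 were at least 4 times as high in 1 stromal class as in the others (background 3.94%). Those 3 were Wnt2, Wnt10b and Gpc3, of which Gpc3 was at 3.47-fold in barcodes with at least 5000 UMIs, and Wnt10b dropped under the floor there with 174 stromal UMIs. Over the 31 genes the median fold over the myeloid classes was 18.5, beside 1.11 for all genes.

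Among the 18 other ligands, 5 passed the floor. Wnt2 was at 58.2 CPM (51.0 to 66.2) in the Pi16 class, 7.47 times the other stromal classes, and Wnt10b, a canonical ligand, at 35.2 CPM (29.6 to 41.5) in the same class, 13.8 times the others. Wnt11 was at 27.3 CPM over the stroma and 62.4 CPM in the Pi16 class, and it was higher in dendritic-like barcodes at 81.6 CPM. Wnt5b was at 27.2 CPM in the Pi16 class, in which Sfrp2 was highest. The Pi16 level was 3.67 times the other stromal classes for Wnt5b and 2.84 times for Wnt11, both under the 4-fold limit. Wnt9a was at 20.9 CPM in the tenocyte-like and 16.0 CPM in the Pi16 class (Wnt5b and Wnt9a were picked after their values were seen). Of the 11 other secreted modulators only Cthrc1, a secreted collagen triple helix protein, passed the floor, at 97.0 CPM over the stroma and 251 CPM (200 to 312) in the Apod class. Rspo1, a second R-spondin noted after its values were seen, had 139 stromal UMIs and was at 31.0 CPM in the Gdf10 class and 2.39 CPM in the rest, where Rspo3 was highest in the Bmper class.

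Of the 25 receptors and co-receptors 17 passed the floor and 11 were called over the myeloid classes, where 16.5% of all genes were. The glypican Gpc3 was at 714 CPM (624 to 812) in the Apod class, 4.44 times the other stromal classes, and Gpc6 was at 426 CPM over the stroma, with 872 CPM in the Pi16 class. Of the secretion machinery, Wls, which carries Wnt proteins to the surface, was nearly even, at 121 CPM in the stroma and 91.8 CPM in the myeloid classes. Of the transcriptional mediators, Tcf7l2 was at 196 CPM in the stroma and 54.9 CPM in the myeloid classes, while Lef1, picked after its values were seen, had 7 stromal UMIs. Of the 5 feedback targets, 3 passed the floor and all 3 were called over the myeloid classes (background 16.5%), among them Nkd2 at 12.8 CPM over the stroma, with 26.6 CPM in tenocyte-like barcodes. Axin2, a common reporter of canonical signalling also picked afterwards, had 164 stromal UMIs, at 9.12 CPM (7.15 to 11.5) in tenocyte-like barcodes, in which Wif1 was highest, and 4.08 CPM in the rest of the stroma.

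A few pathway genes shared the class of Frzb and were chosen after their values were seen. Nkd2 was at 212 CPM (187 to 239) in Schwann-like barcodes, the R-spondin receptor Lgr4 at 84.2 CPM, the receptor Fzd3 at 71.7 CPM and the secreted BMP and Wnt antagonist Sostdc1 at 31.7 CPM, from 38 of its 59 UMIs in the library. Sostdc1 had only 4 UMIs over the stromal classes, in which Frzb was near 0 too. In the small Apod class 0 UMIs allow up to 9.31 CPM for either gene.

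**Figure D5:**
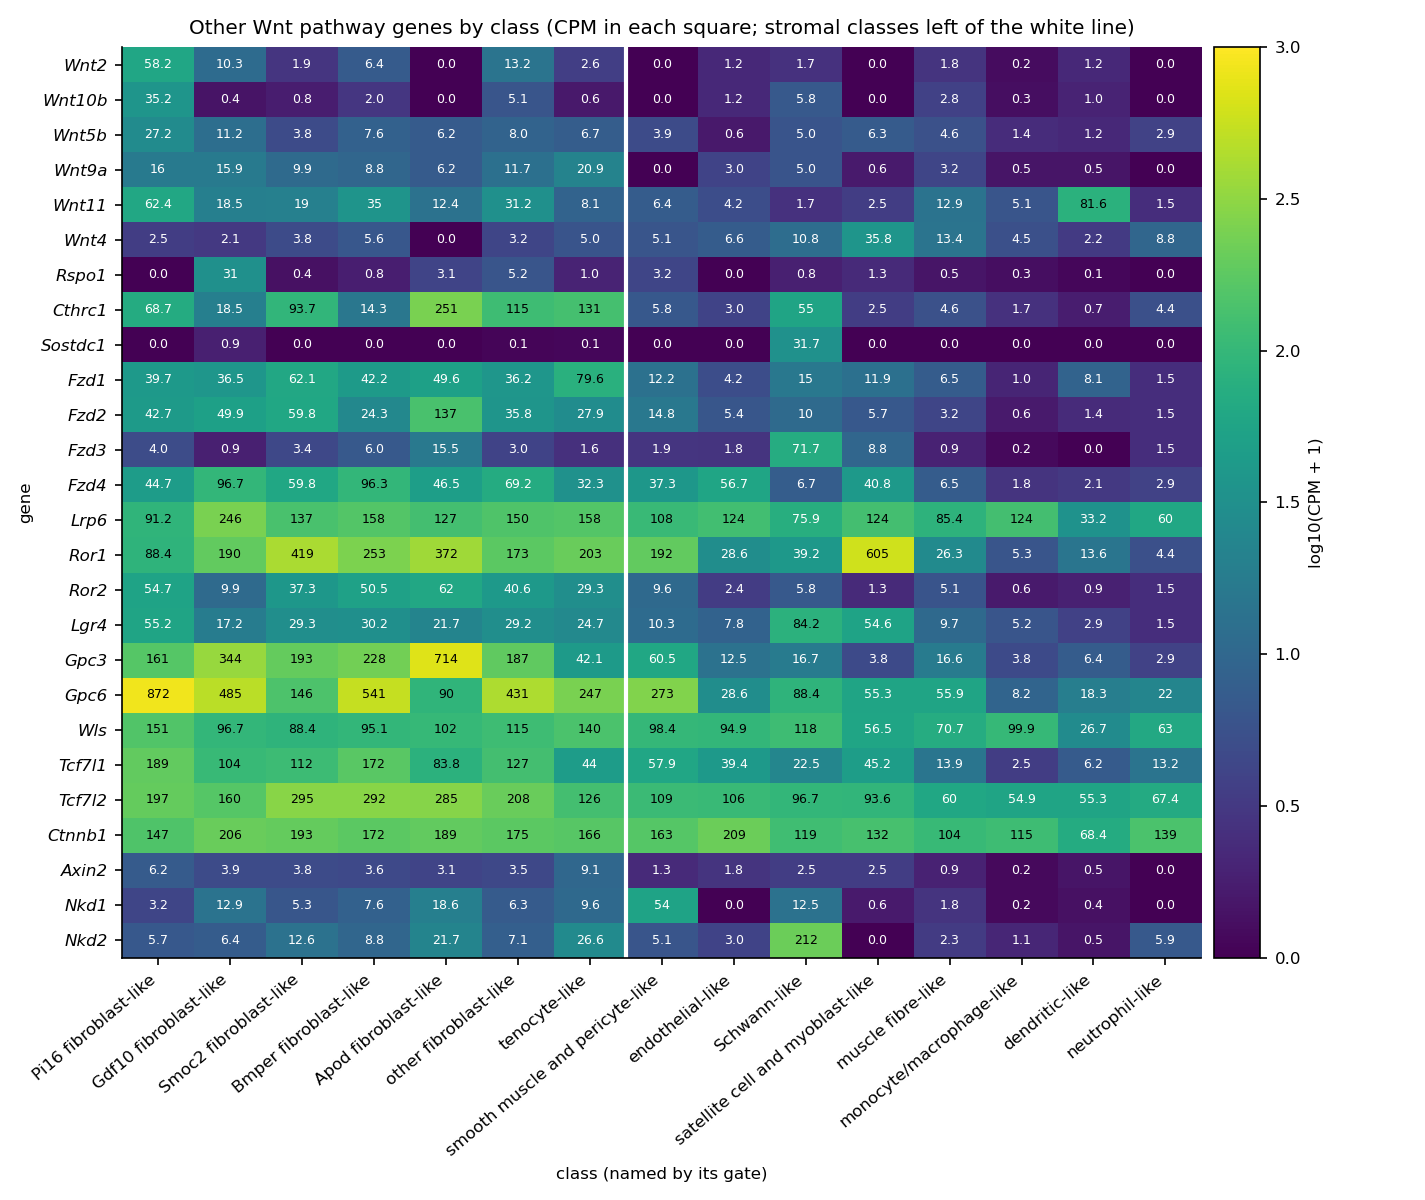
CPM of 26 other Wnt pathway genes (rows, printed in each square) in 15 classes (columns), coloured by log10(CPM + 1), with stromal classes left of the white line. Wnt2 and Wnt10b are highest in the Pi16 class, Gpc3 in the Apod class, and Fzd3, Lgr4, Nkd2 and Sostdc1 in the Schwann-like class.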

How the data were processed

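The GFP+ matrix held UMI counts that the authors obtained with Cell Ranger and deposited unnormalized, 1 for each gene in each barcode. Neither doublets nor free RNA were removed in the main values. The matrix header names Cell Ranger 8.0.1 and the processing notes 7.1.0 with mm10, while the methods name GRCm38 and GRCm39. Positions are RefSeq GRCm38.p6. For the GFP- library only its barcodes were used here. The members and lists were chosen with earlier results of these data known.

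A gate asked for at least 3 UMIs over at least 2 markers of its list and a share at least 2 times that of the pooled barcodes, or at least 1 time for monocyte/macrophage genes where no gate was passed and these genes exceeded the fibroblast genes. Fibroblast-like barcodes were split the same way against their own pool. Barcodes in more than 1 gate were left out, except pairs of related types, which took the higher. Classes under 30 barcodes (8 lymphocyte-like, 6 perineurial-like) were left out.

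Intervals (95%) are exact Poisson for CPM, Clopper-Pearson for shares and exact conditional for ratios, and a count of 0 allows 3 counts. With 1 library no test was run and a call is a fold of at least 4 among genes with at least 200 stromal UMIs. Named genes were the members, pathway genes past 4-fold in a stromal class, the gene with the highest stromal CPM in each list (a rule for naming, not a ranking), and the 3 most similar genes of each member. The 11 alternatives covered depth, filters, Scrublet doublets (scanpy 1.11.5), gates, class level and the floor. Python 3.11.15, numpy 2.4.6 and scipy 1.17.1 were used, and the steps were tested on simulated data. Results on single genes of the Schwann gate are not reported here.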

Additional observations from a re-analysis of the deposited data

How the results depend on the processing

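Removing the 2209 used barcodes that Scrublet ranked highest left 1 member past 4-fold in a stromal class in place of 2, since Sfrp4 dropped below the limit (log2 ratio 1.99). With the mean over barcodes the count was 2 again, but Sfrp4 (1.78) was lost and Rspo3 (2.03) gained. The 3 pathway genes past 4-fold in a stromal class became 1 with barcodes of at least 5000 UMIs, 6 with the mean over barcodes, 5 with a floor of 50 UMIs and 1 with a floor of 1000 UMIs. Wnt10b and Gpc3 were lost at 5000 UMIs and Wnt2 and Wnt10b with the floor of 1000, while the mean over barcodes added Wnt5b, Cthrc1 and Fzd2 and the floor of 50 added Rspo1 and Fzd3. The 20 pathway genes past 4-fold over the myeloid classes became 11 with the floor of 1000 UMIs and 25 with the floor of 50, which count fewer and more genes. Adding Dkk2 to its own gate raised the member count to 3. Of 81 recomputed member ratios, 60 stayed within their counting interval, 21 left it and 0 changed direction. The 60 include all 9 ratios of Frzb, whose interval of -2.32 to 3.05 could hardly be left. Some alternatives could not move a ratio, such as that of Wif1 with Dkk2 added to the Bmper gate. Each ratio sets the class chosen as highest against the others, mostly in the same barcodes. A change of direction was therefore unlikely from the start, and the tally does not measure stability. For Wif1 the log2 ratio ran from 4.82 (mean over barcodes) to 7.86 (at least 5000 UMIs). The alternative without barcodes near a gate was added after the data were seen, and there Wnt10b dropped under the floor and Wnt5b came in. No paired analysis was run because counts of only the GFP+ library were used here. Depth limits the low levels: the 8 members other than Frzb reached 22.7 CPM in shallow monocyte/macrophage-like barcodes and at most 1.06 CPM in deep ones.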
